A study of Mus musculus with 7 samples.

Results

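Clu, Msln, Ly6a, Spp1 and Gja1 are 5 genes known as markers of fetal-like or regenerating intestinal epithelium. They were followed in intestinal epithelial cells of mice after loss of Mob1a and Mob1b, adaptors through which the Hippo pathway switches on its Lats kinases. The genes were chosen by name, and each was found on the array through the transcript accession of its probe, because the scanner files give accessions and no gene symbols. All 5 had a probe, among 20887 genes with a symbol on the array, and each was measured by 1 probe (Gja1 on 10 spots).

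All mice were males aged 8 weeks on a C57BL/6J background, carried floxed alleles of both genes (Mob1a f/f; Mob1b f/f) and received tamoxifen at 80 mg/kg per day on 2 days. The knockout mice also carried Villin-creERT2, a tamoxifen-dependent Cre driven by the Villin promoter in the intestinal epithelium, while the controls, labelled wild type, are listed without it, so effects of Cre activity and of the deletion cannot be told apart in a difference from control. RNA came from cells detached with EDTA from the proximal intestine, and the knockouts were sampled on day 4 (2 arrays), day 7 (2 arrays) and day 10 (1 array) beside 2 control arrays. The labels place the controls at day 7 and the series' design text names a time of 0 days, so their day is not settled. The design text says that arrays of a group came from different mice. The lone day 10 array has no replicate, and its tests assume that it varied like the other groups.

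After injury the intestinal epithelium can pass through a state that resembles the fetal gut, in which adult crypt stem cell genes are low and a set of surface and secreted proteins appears. YAP, the transcription coactivator that Hippo signalling restrains, is known to be active in that state. Clu marks the rare revival stem cells that rebuild damaged crypts, and Ly6a, which encodes Sca-1, marks regenerating and fetal-like epithelium.

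The scanner signal at the 75th percentile ran from 315 to 395 over the first 6 arrays and reached 545 at day 10. Levels are log2 signals relative to that percentile, differences between groups are log2 differences, given ± standard error (SE), and a gene was called at an adjusted p under 0.05 (limma, Benjamini-Hochberg over 24760 features). A signal is called well above background where the scanner software marked it so. Row 1 of the slide held controls and day 4 and row 2 held day 7 and day 10, so position on the slide and time cannot be told apart in the step from day 4 to day 7 or in comparisons of day 7 and day 10 with control. As a check of the labels, the brighter of the Mob1b probes read -0.90 and -1.13 in controls and between -2.73 and -2.42 on the 5 knockout arrays, so the groups did not overlap. The Mob1a probe, dim and well above background on 5 arrays, read -3.87 and -3.71 in controls, -4.26 to -3.41 at day 4 and day 7 and -2.18 at day 10. Where these probes lie relative to the deleted exons is not given in the sources used here, so the Mob1a probe neither bears out nor contradicts the labels. All 12 markers of intestinal epithelium were well above background on every array. Their summed signal was 2480 to 2920 times the 75th percentile up to day 7 and 1830 at day 10. The cells were measured in bulk, so fewer cells of a type and less RNA per cell cannot be told apart.

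Clu, Msln and Ly6a rose by day 7 and stood higher still on the day 10 array. Spp1 was well above background on the day 10 array alone, and Gja1 on none. Of the 5 genes, 3 therefore passed the filter on dim probes (at least 2 of the 7 arrays well above background) and were tested. None of these 3 was called at day 4, where 0.0323% of all features were. An unadjusted p under 0.05 in limma was found for 2 of them and for 1542 of all 24760 features. The 2 went opposite ways, Clu higher (2.62) and Msln lower (-1.755), and Msln was not well above background on either day 4 array. All 3 were called higher at day 7 against control (2.96% of all features), at day 7 against day 4 (1.24%) and at day 10 against control (10.4%), and 2 of 3 at day 10 against day 7 (7.2%). Msln passed the filter through the day 7 and day 10 arrays and 1 control array, so that its place among the tested genes already reflects its high groups. The differences of day 4, day 7 and day 10 from control share the same 2 control arrays.

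**Figure D1:**
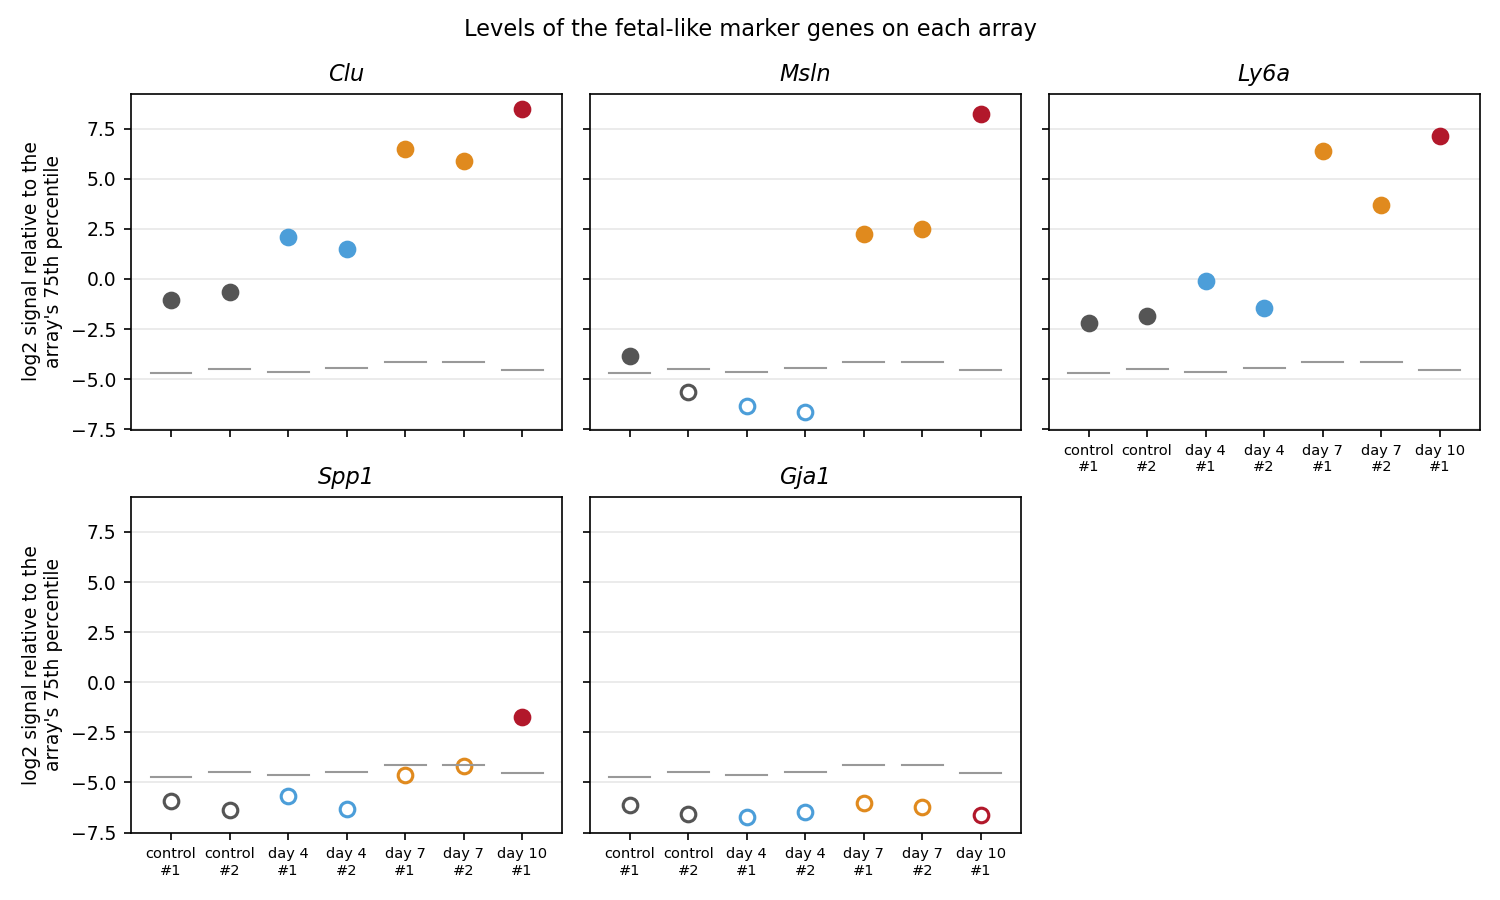
Level of each gene on each array (log2 signal relative to the array's 75th percentile), with filled points well above background, open points not, and short grey lines at the lowest level well above background on that array. Clu, Msln and Ly6a are high at day 7 and day 10, Spp1 is filled on the day 10 array alone, and all Gja1 points are open.

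The secreted proteins come first. Clu encodes clusterin, an extracellular chaperone that binds misfolded proteins. Its level was -1.05 and -0.64 on the control arrays, 2.08 and 1.48 at day 4, 6.47 and 5.86 at day 7, and 8.49 at day 10. The groups did not overlap, and each later group lay above the earlier one. The share of all features in such an order is not given here, so this is a description. In scanner units the signal went from 152 and 238 in the controls to 196583 on the day 10 array, below saturation. At day 4 the difference from control was 2.62 ± 0.34, or 6.16-fold, and it was not called (limma, adjusted p = 0.115). With normexp background correction it was called (2.23, adjusted p = 0.0383), as it was among probes well above background on all arrays (adjusted p = 0.0372), and over its alternatives the adjusted p reached 0.686. Clu rose 129-fold at day 7 (7.01 ± 0.34, adjusted p = 0.00132) and 646-fold at day 10 (9.33 ± 0.41, adjusted p = 2.28e-04). The steps between the knockout groups were 4.39 ± 0.34 from day 4 to day 7 (adjusted p = 0.00741) and 2.32 ± 0.41 from day 7 to day 10 (adjusted p = 0.0136). The first of these steps was not called without day 4 replicate 1 (4.69, adjusted p = 0.0536) or without day 4 replicate 2 (4.09, adjusted p = 0.0882). Among 12103 genes well above background on all arrays of both groups, the difference of Clu between day 10 and control was the highest, and at day 7 it ranked 3 of 11977.

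Known clusterin receptors were mostly dim up to day 7. Of 5 listed receptor genes 2 were tested. The VLDL receptor gene Vldlr fell by 2.30 ± 0.35 at day 7 (adjusted p = 0.0177) and the ApoE receptor gene Lrp8 differed by 1.503 ± 0.59 (adjusted p = 0.201). This decrease was no longer called when control replicate 1 (0.0904), control replicate 2 (0.059) or day 7 replicate 1 (0.0812) was left out. Lrp2, Plxna4 and Trem2 were each well above background on the day 10 array alone and were not tested.

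Spp1 encodes osteopontin, a secreted phosphoprotein that binds integrins and CD44 and is made by macrophages as well as epithelia. Its probe read 5.23 and 4.43 scanner units in the controls, 7.79 and 4.48 at day 4, 13.6 and 19.7 at day 7, and 163 at day 10. Only the last of these was well above background, so that the other 6 arrays give no measured order. The level at day 10 was -1.74, at least 7.28-fold above the controls and at least 5.23-fold above day 7. These bounds, like those below, compare the brighter group's mean with the dimmest detectable signal of each array in the other group, or with the gene's own signal there if that is higher. The bounds hold for the main background correction alone. Spp1 was not tested with the main filter. With a filter of at least 1 array, added after the data were seen, its difference between day 10 and control had an adjusted p of 0.00172 (limma). Passing that filter through the day 10 array alone means that a difference was bound to appear there.

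Summed signals of macrophage and other myeloid markers were also highest on the day 10 array. They were 37.7 and 39.1 times the 75th percentile in controls, 25 to 32.7 at day 4, 45.7 to 53.2 at day 7 and 287 at day 10, and all 11 listed genes with a probe were well above background at day 10 against 7 to 8 in controls. Itgam, an integrin subunit gene of myeloid cells, held 82.0% to 92.2% of the sum up to day 7, and S100a9 held 52.0% at day 10. At day 10, 7 of 10 tested genes were called higher, against 10.4% of all features. Itgam (0.74), the complement gene C1qb (0.47) and the lysozyme gene Lyz2 (-0.86) were not called. Csf1r, the receptor of the main macrophage growth factor, stood -0.14 from control at day 7 (adjusted p = 0.789), while at day 10 it rose by 3.32 (adjusted p = 0.00114). S100a9, a calprotectin subunit of neutrophils and inflamed epithelium, was at least 5.66-fold higher at day 7 (adjusted p = 0.0192) and at least 3630-fold higher at day 10. It passed the filter only through the day 7 and day 10 arrays, where it is high, so that a difference had to appear. Leaving out either control replicate (0.0735 and 0.0691) or day 7 replicate 1 (0.0586), using normexp background correction (0.0762) or no filter on dim probes (0.0521) ended the day 7 call of S100a9. The part of myeloid cells in the Spp1 signal was not tested.

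Among the genes of osteopontin receptors and related matrix proteins, 8 of 14 were tested. Against 2.96% of all features, 1 of the 8 rose at day 7. This was Itgb6, the epithelial integrin subunit beta 6, with a difference of 1.28 ± 0.23 (adjusted p = 0.0296), which was called in 10 of 19 alternatives. It was not called without each control, day 4 or day 7 array in turn (adjusted p from 0.0535 to 0.12), with normexp background correction (0.0558) or with no filter on dim probes (0.0757). Against 10.4% of all features, 3 of the 8 were higher at day 10. These were Itgb6 (3.38) and the integrin subunit genes Itgav (3.88, adjusted p = 0.00205) and Itgb1 (1.54, adjusted p = 0.00705), the last 2 named after their values were seen.

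RefSeq gives 2 start sites for Spp1, and the 250 bases before each are shown because this gene was well above background only at day 10 (build GRCm38.p6, both on the + strand, chr5:104434861-104435110 and chr5:104435942-104436191). Motif matches would be in capitals. Searched on both strands were GGAATG, the core bound by the TEAD partners of YAP, and TGANTCA, bound by AP-1.
Spp1 start a: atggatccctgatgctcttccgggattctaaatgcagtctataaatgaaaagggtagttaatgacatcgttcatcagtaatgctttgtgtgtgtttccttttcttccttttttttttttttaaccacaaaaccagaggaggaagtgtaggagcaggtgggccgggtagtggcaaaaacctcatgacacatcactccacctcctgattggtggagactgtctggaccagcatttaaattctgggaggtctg
Spp1 start b: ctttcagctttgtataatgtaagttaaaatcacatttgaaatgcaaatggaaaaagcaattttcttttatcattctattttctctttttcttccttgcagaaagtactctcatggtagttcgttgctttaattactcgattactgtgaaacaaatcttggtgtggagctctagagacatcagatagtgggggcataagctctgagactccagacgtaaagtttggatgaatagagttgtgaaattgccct
Neither window holds either set of letters, so both are printed in lower case throughout. Among all 32851 windows of this length in the RefSeq table, 12.6% hold GGAATG and 6.75% hold TGANTCA.

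Msln and Ly6a both encode proteins held at the cell surface by a lipid anchor. Msln encodes mesothelin, which is made by the mesothelium and by many carcinomas. On the control arrays its level was -3.84, which was well above background, and -5.63, which was not. It was -6.36 and -6.62 at day 4, neither well above background, 2.25 and 2.5 at day 7, and 8.23 at day 10. The day 7 arrays lay close together and far above all 4 earlier arrays, and the day 10 array lay far above them. Against day 4 the rise at day 7 was at least 121-fold (adjusted p = 0.00469), a call that ended without day 4 replicate 1 (adjusted p = 0.0536) and without day 4 replicate 2 (0.0768). With normexp background correction this difference was 5.03, below that bound (6.92 on the log2 scale). Against control, of which 1 array was not well above background, Msln differed by 7.11 ± 0.56 at day 7 (adjusted p = 0.00337), and the day 10 array stood 12.97 ± 0.68 higher (adjusted p = 2.43e-04). The step from day 7 to day 10 was 5.86 ± 0.68, or 58.0-fold (adjusted p = 0.00336), which ranked 11 of 12026 genes measured on all 3 arrays. The same step of Clu ranked 343 and that of Ly6a 415.

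Of the mesothelial markers, Upk3b, Lrrn4, Wt1 and Gpm6a were not well above background on any of the 7 arrays. The summed signal of the 6 listed mesothelial markers with a probe was between 0.286 and 0.509 times the 75th percentile up to day 7 and 6.68 at day 10. The rise at day 10 came from Krt14, a keratin of basal squamous cells (5.54, adjusted p = 2.28e-04), and Upk1b, a uroplakin (3.26, adjusted p = 8.94e-04). At day 7 Krt14 differed from control by 0.68 ± 0.22 (adjusted p = 0.135). Of the Msln relatives Mslnl, Otoa and Strc, none was well above background on more than 1 array, and none was tested.

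Ly6a encodes Sca-1, a small surface protein of the Ly6 family that is also known on haematopoietic stem cells and endothelium. Its level was -2.20 and -1.84 in controls, -0.09 and -1.44 at day 4, 6.38 and 3.69 at day 7, and 7.12 at day 10. Both day 4 arrays lay above both controls, and both day 7 arrays above these, which is a description of 2 arrays a group. The day 7 mice differed from each other by 6.49-fold, against 1.53-fold for Clu and 1.19-fold for Msln, and the mouse with the higher Ly6a also had the higher Clu and the lower Msln. At day 4 Ly6a was 1.26 ± 0.89 above control, which was not called (adjusted p = 0.916, 95% interval -0.90 to 3.42). It rose by 7.06 ± 0.89 at day 7, or 133-fold (adjusted p = 0.0101), and by 9.14 ± 1.09 at day 10, or 566-fold (adjusted p = 0.00221). The step from day 4 to day 7 was 5.80 ± 0.89 (adjusted p = 0.0339), the highest of 12168 genes measured on all 4 arrays. From day 7 to day 10 the difference was 2.09 ± 1.09 and was not called (adjusted p = 0.25, 95% interval -0.56 to 4.73). Without day 7 replicate 1 it was called (3.44, adjusted p = 0.0343).

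The calls of Ly6a were the least stable of the 3 genes. The day 7 call against control ended without control replicate 1 (6.88, adjusted p = 0.0523). The call of the step from day 4 to day 7 ended without day 4 replicate 1 (adjusted p = 0.123) or 2 (0.237), either control replicate (0.0551) or day 7 replicate 1 (4.45, adjusted p = 0.061). It ended also with no filter on dim probes (0.0885), with the filter of at least 1 array (0.0651) and with only the day 4 and day 7 arrays in the fit (0.0551).

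Of 13 listed genes of the Ly6 and uPAR family 9 were tested. At day 7, 4 rose and 1 fell, against 2.96% and 4.5% of all features. Ly6f rose at least 53.2-fold (adjusted p = 0.0051) and Ly6c1 rose 72.9-fold (6.19 ± 0.84, adjusted p = 0.0123), while Lypd6 fell by 1.16 ± 0.20 (adjusted p = 0.0256). Plaur, the urokinase receptor gene, and Ly6d (2.57) were the others that rose. Ly6f was well above background on no control array and 1 day 4 array, so that it too was tested because of its high groups. The median difference of the 9 was 0.64, that of Ly6e (adjusted p = 0.373). The calls of Ly6c1 and Ly6d ended without control replicate 1 (adjusted p = 0.0618 and 0.0753). The call of Lypd6 was kept in 9 of 19 alternatives, and it ended without each control, day 4 and day 7 array in turn (0.0509 to 0.151) and with normexp background correction (-0.70, adjusted p = 0.109). Ly6a, Ly6c1 and Ly6f are similar in sequence, and which of them each probe measured is uncertain.

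On none of the 7 arrays was any of the endothelial genes Cdh5, Cldn5, Emcn and Tek well above background, and the summed signal of the 7 endothelial markers was 7.18 to 8.03 times the 75th percentile in controls, 8.32 to 9.04 at day 7 and 6.64 at day 10. Kdr was the brightest of them on every array, with levels of 2.96 and 2.80 in controls, 3.13 and 3.00 at day 7 and 2.40 at day 10. Pecam1 was at -2.39 or lower throughout, so the sum largely follows Kdr. Tie1, an endothelial receptor gene, was at least 1.97-fold higher at day 7 (adjusted p = 0.00768) and at least 29.5-fold higher at day 10, and like S100a9 it passed the filter only through those groups. With normexp background correction its day 7 call ended (0.191). The part of endothelial cells in the Ly6a signal was not tested. T cell markers summed to 17.8 to 22.6 in controls, 19.2 to 21.3 at day 7 and 2.74 at day 10. Their member with the smallest p at day 7, Cd28, differed by 0.49 ± 0.23 (adjusted p = 0.27).

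**Figure D2:**
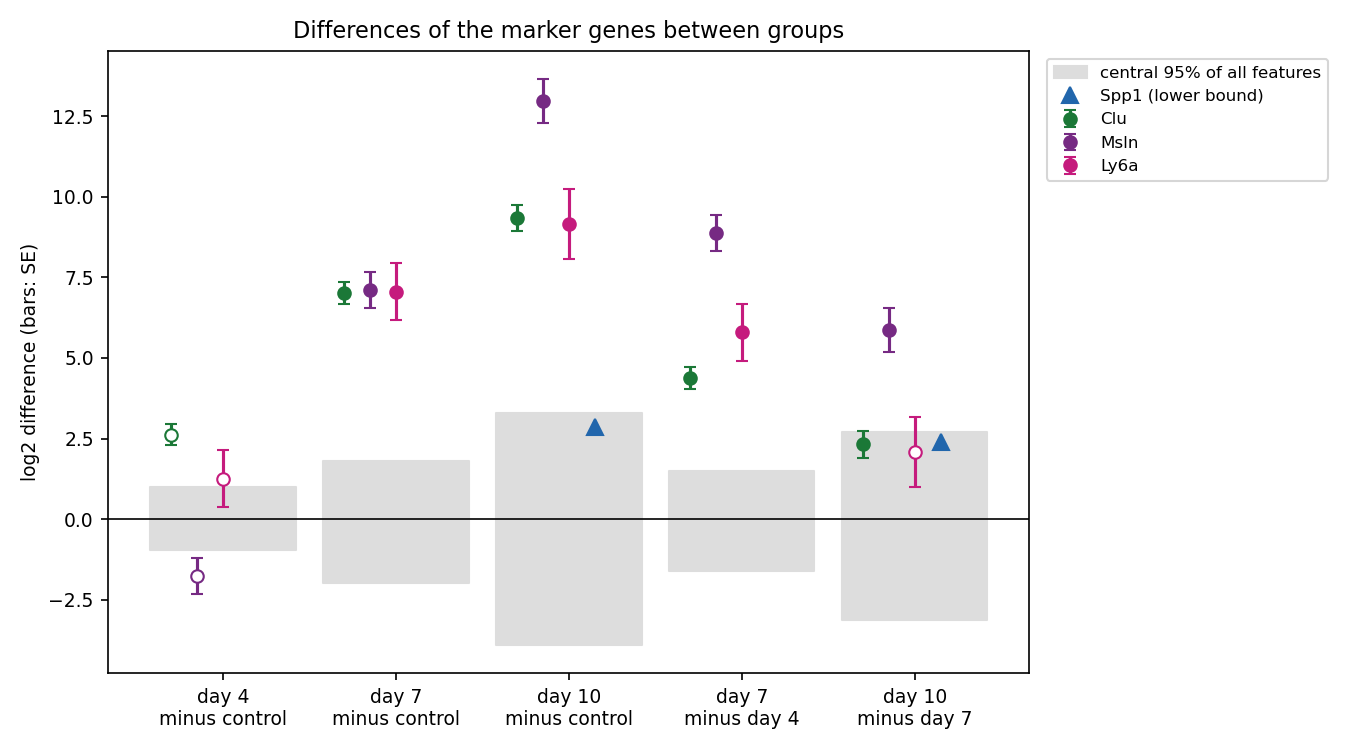
Log2 differences between groups (bars: SE) for the tested genes, filled where called and open where not, with lower bounds for Spp1 at day 10 as triangles. Grey boxes span the central 95% of all 24760 features, which the 3 tested genes exceed at day 7 against control and at day 10 against control.

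Gja1, the last of the genes, encodes a connexin, a membrane-spanning gap junction channel protein, that is known from fetal intestinal spheroids and from smooth muscle. The mean over its 10 spots was between 3.67 and 5.48 scanner units on the 7 arrays, and the probe was not well above background on any of them. Gja1 was therefore not detectable on these arrays, and its order between groups has no meaning. Among 17 listed connexin and partner genes 8 were tested. Tjp1, a tight junction scaffold that binds connexins, rose by 1.39 ± 0.24 at day 7 (adjusted p = 0.0227), and no connexin was called. Gjb1, a connexin of epithelia, differed by -0.67 ± 0.25 (adjusted p = 0.187). Tjp1 was not called when either control replicate (0.104 and 0.0951), either day 4 replicate (0.0589) or day 7 replicate 1 (0.0858) was left out.

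RefSeq gives 1 start site for Gja1, and the 250 bases before it are shown with the match to TGANTCA in capitals, as the counterpart to the Spp1 windows (build GRCm38.p6, + strand, chr10:56377050-56377299).
Gja1 start: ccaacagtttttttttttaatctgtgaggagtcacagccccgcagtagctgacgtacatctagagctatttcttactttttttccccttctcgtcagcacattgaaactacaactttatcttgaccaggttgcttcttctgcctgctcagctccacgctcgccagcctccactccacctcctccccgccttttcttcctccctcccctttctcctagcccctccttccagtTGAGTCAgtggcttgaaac
The match begins 19 bases before the start, does not overlap a match to GGAATG, and is a description of the letters. Of the 5 genes 2 had an entry in the promoter table.

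Beyond the 5, a list of 30 other genes of fetal-like or regenerating epithelium was followed, of which 25 were tested. At day 4 none was called by limma, and the median difference was 0.04 against -0.08 over all features. An unadjusted p under 0.05 was found for 7 of them and for 1542 of all 24760 features. Among the 7, Anxa10 (-1.71) and Sprr1a (-1.89), named after their values were seen, were lower and the others higher. At day 7, 13 rose, against 2.96% of all features, and none fell (median 2.10 against -0.08). At day 10, 22 rose, against 10.4% of all features, and none fell (median 4.03 against -0.15). From day 4 to day 7, 12 rose, against 1.24% of all features, and from day 7 to day 10, 14 rose, against 7.2%, with none lower in either. Plaur and Ly6d are in this list and in the Ly6 and uPAR list. The list was drawn up with earlier results of these samples known, so its count is not independent evidence of its direction.

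Ccn2, a secreted matrix protein and direct YAP target, was at least 70.7-fold higher at day 7 (adjusted p = 0.00659). Tm4sf1, a tetraspanin-like surface protein, was at least 69.2-fold higher (adjusted p = 9.96e-04). With normexp background correction the log2 differences were 4.05 for Ccn2 and 3.97 for Tm4sf1, smaller than these bounds. Tm4sf1 passed the filter only through the day 7 and day 10 arrays, and Ccn2 was well above background on no control array and 1 day 4 array, so that their place among the tested genes reflects their high groups. Ccn1, a matrix protein and YAP target, rose 16.2-fold (4.02 ± 0.28, adjusted p = 0.00227). The EGF family ligand gene Ereg rose 15.3-fold (3.93 ± 0.59) and Plaur 14.9-fold (3.90 ± 0.62). The smallest of the rises that were called were 5.67-fold for the annexin gene Anxa5, 4.31-fold for Tnfrsf12a, which encodes the TWEAK receptor, and 4.28-fold for the EGF family ligand gene Areg. Anxa1, an annexin that marks regenerating epithelium, had a difference of 1.83 ± 0.41 at day 7 (adjusted p = 0.0536), and at day 10 it rose by 9.82 (adjusted p = 2.32e-04). It was named after its values were seen. At day 4, Ccn1 differed by 2.01 (adjusted p = 0.145).

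The count of 13 rises at day 7 was 8 without control replicate 1, where Ereg (adjusted p = 0.0702), Plaur (0.0806), Areg (0.122), Ly6d (0.0753) and Tnfrsf12a (0.0523) were not called. Ereg, Plaur and Areg were also not called without day 7 replicate 1 (0.0543, 0.0799 and 0.0968), and Ereg and Areg without either day 4 replicate (0.0511 and 0.0649). From day 4 to day 7 the count of 12 was 2 without day 4 replicate 1, 0 without day 4 replicate 2 and 4 without day 7 replicate 1.

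**Figure D3:**
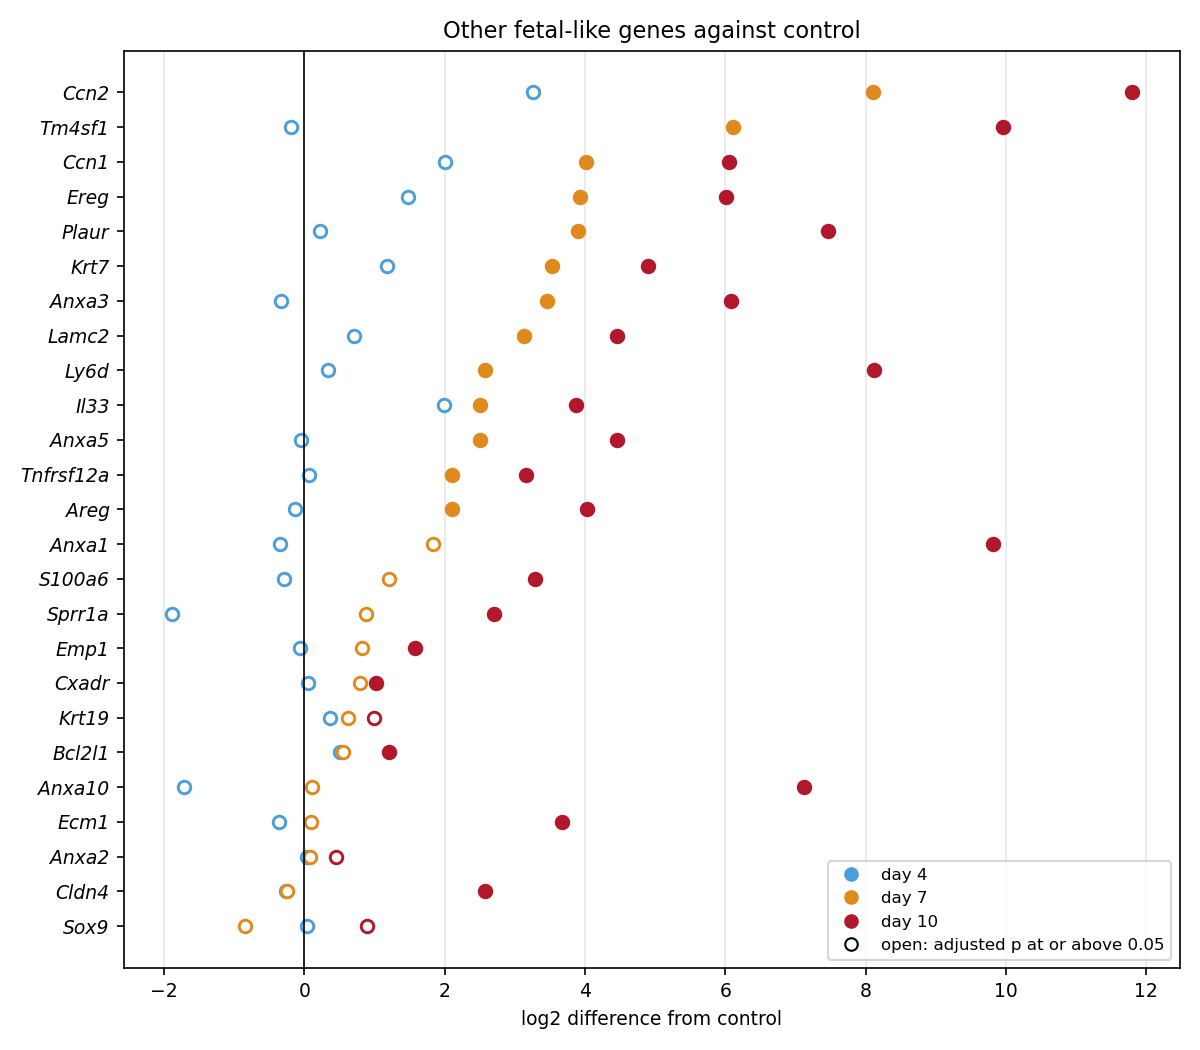
Log2 differences from control of the 25 tested genes of the other fetal-like list at day 4, day 7 and day 10, filled where called, in the order of their day 7 difference. No point is filled at day 4, 13 are at day 7 and 22 at day 10.

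Adult crypt base stem cells are the state that the fetal-like programme is known to replace. Of 20 listed genes of these cells 18 were tested, and at day 7 none rose and 4 fell (4.5% of all features fell), with a median difference of -0.51. The stem cell transcription factor gene Ascl2 fell by 2.75 ± 0.28 (adjusted p = 0.00561) and the Wnt target Sp5 by 1.71 ± 0.33 (adjusted p = 0.0336). Lgr5, the receptor gene that marks these stem cells (-1.55, adjusted p = 0.0303), and Rnf43, a Wnt pathway inhibitor (-1.59, adjusted p = 0.0389), were the others, named after their values were seen. The other 14 were not called, with values from -1.15 for Cdca7 to 1.19 for Cdk6, which was not well above background in either control. The call of Sp5 ended without each control replicate (adjusted p = 0.146 and 0.0999) and each day 7 replicate (0.141 and 0.0655). Lgr5 and Rnf43 were not called without each control or day 4 array or without day 7 replicate 1 (0.0638 to 0.149), while the call of Ascl2 held in all 19 alternatives. On the day 10 array 10 of the 18 were lower, against 17.6% of all features, and the median was -1.45. Higher there were 4, against 10.4% of all features. These were Aqp4 (4.10), Prom1 (2.40), Soat1 (1.97) and Cdk6 (at least 4.31-fold), named after their values were seen. The summed signal of the 19 genes with a probe was 95.3 to 103 in controls, 51.2 to 57.4 at day 7 and 99.3 at day 10. Prom1 (5.72) and Aqp4 (4.48) had the highest levels of the 18 at day 10. The sum at day 10 therefore does not show a return of the genes that fell.

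Genes with a profile near that of each marker were sought over the 7 arrays, by the root mean square difference after each profile was centred on its own mean. For Clu these were Zfp185, which encodes an actin-associated LIM protein (0.53 on the log2 scale, Pearson r = 0.989), the endothelin gene Edn1 (0.54, r = 0.992) and the magnesium channel gene Trpm6 (0.63, r = 0.995). Trpm6 was well above background on all 7 arrays, and the other 2 on 5. Trpm6 had a level of -2.98 and -2.74 in controls, 0.22 and -0.51 at day 4, 3.25 and 2.49 at day 7 and 5.39 at day 10.

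For Ly6a the nearest was Ly6c1 (0.46, r = 0.998), then Zfp185 (0.78, r = 0.985) and Ly6f (0.86, r = 0.974). Ly6c1 also stood apart between the day 7 mice, with levels of 7.24 and 4.45. Which of Ly6a, Ly6c1 and Ly6f each of these probes measured is uncertain, so their likeness may not be one between separate genes. For Msln the nearest profiles were farther away, with Tm4sf1 at 1.53 (r = 0.992), S100a9 at 1.95 (r = 0.931) and Duoxa2, an oxidase maturation factor gene, at 2.10 (r = 0.94). Tm4sf1 and S100a9 were well above background on 3 of 7 arrays, so that much of their likeness to Msln rests on those 3. With 7 arrays that share groups, these correlations are descriptions.

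**Figure D4:**
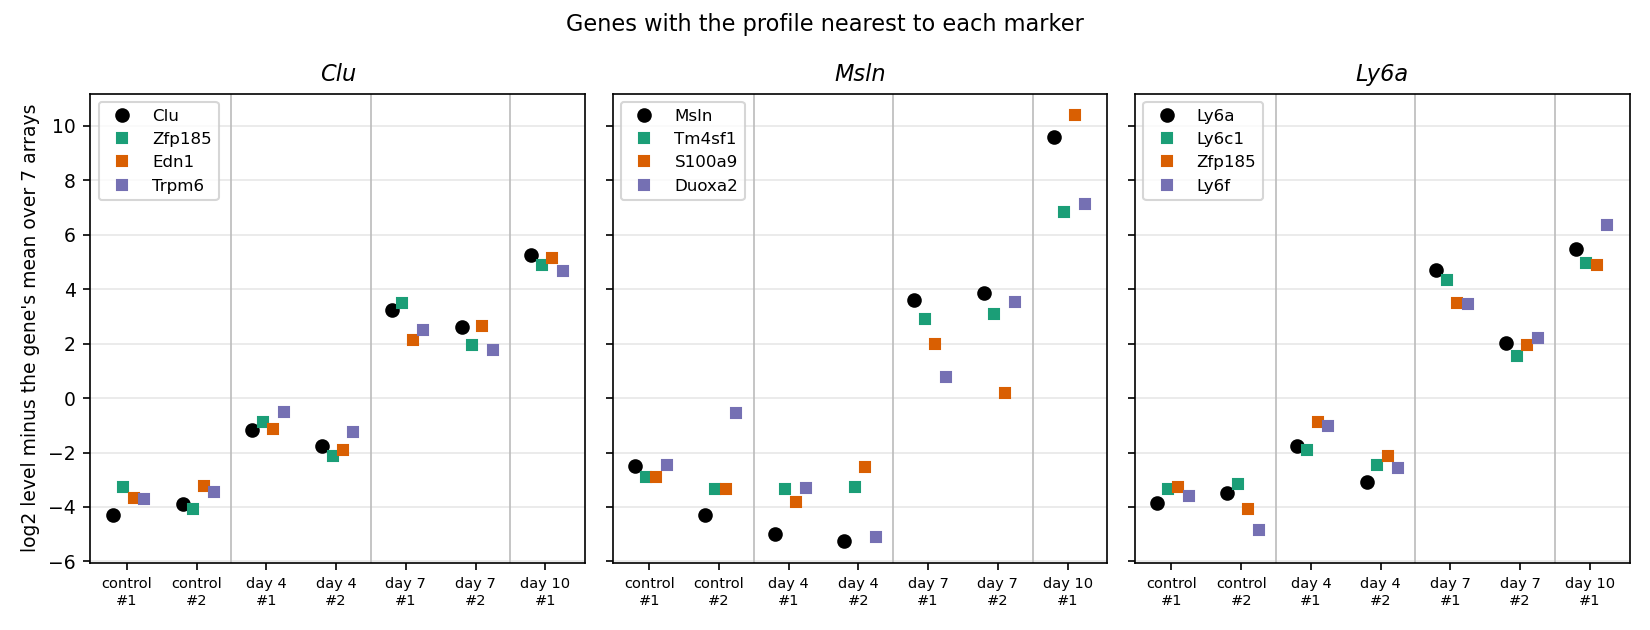
Level of each tested marker (black) and of the 3 genes with the nearest profile (coloured), each minus its own mean over the 7 arrays, by array. Ly6a and Ly6c1 nearly coincide, including the gap between the day 7 arrays, while the genes nearest to Msln depart from it by more. Ly6a and Ly6c1 are similar in sequence, and which of them each probe measured is uncertain.

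Marker lists of other cell types gave the setting of these values. Fibroblast markers summed to 1.39 to 1.49 times the 75th percentile in controls, 1.15 to 1.16 at day 7 and 3.18 at day 10, and on no array was Col1a1, Lum or Pdgfra well above background. Pdpn, a podoplanin gene that is listed with fibroblasts but is also made by other cells, was at least 2.70-fold higher at day 7 (adjusted p = 0.00147), and Dcn, a matrix proteoglycan gene, at least 3.19-fold lower (adjusted p = 0.0304). Pdpn too passed the filter only through the day 7 and day 10 arrays. With normexp background correction neither was called (adjusted p = 0.192 and 0.456), and the Dcn call also ended without control replicate 1 (0.106), either day 4 replicate (0.0739) or either day 7 replicate (0.136 and 0.0552). On the day 10 array Pdpn was at least 54.3-fold above control and had the highest level of the tested fibroblast genes (1.16). The other tested fibroblast genes Col1a2 (-1.10), Col3a1 (-0.68), Dcn (-1.53) and Thy1 (-0.345) lay below control there, so the higher sum at day 10 was not shared by them. Smooth muscle markers summed to 1.96 to 3.00 in controls and 1.67 to 1.85 at day 7, and Acta2, a smooth muscle actin gene, was well above background on none of the control arrays and 1 day 7 array and was not called (adjusted p = 0.361). B and plasma cell markers summed to 2.09 to 3.81 and 1.45 to 2.28, with Jchain at -1.56 ± 0.49 (adjusted p = 0.127), enteric neuron and glia markers to 0.36 to 0.514 and 0.286 to 0.403, and erythroid markers to 13.0 to 19.5 and 0.225 to 4.92, with Alas2 at -2.44 ± 0.83 (adjusted p = 0.154). Among epithelial markers 1 of 12 fell at day 7 (4.5% of all features fell), the transcription factor gene Cdx1 (-0.98 ± 0.20, adjusted p = 0.042), and this call ended without each control, day 4 and day 7 array in turn (0.0756 to 0.201) and with the replicate block (0.0578). It also ended with median scaling (0.0645), quantile normalization (0.0617) and scaling over probes well above background on all arrays (0.0507), and was kept in 6 of 19 alternatives. At day 10, 2 rose and 5 fell, against 10.4% and 17.6% of all features. Their part in the values of the 5 genes was not tested.

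**Figure D5:**
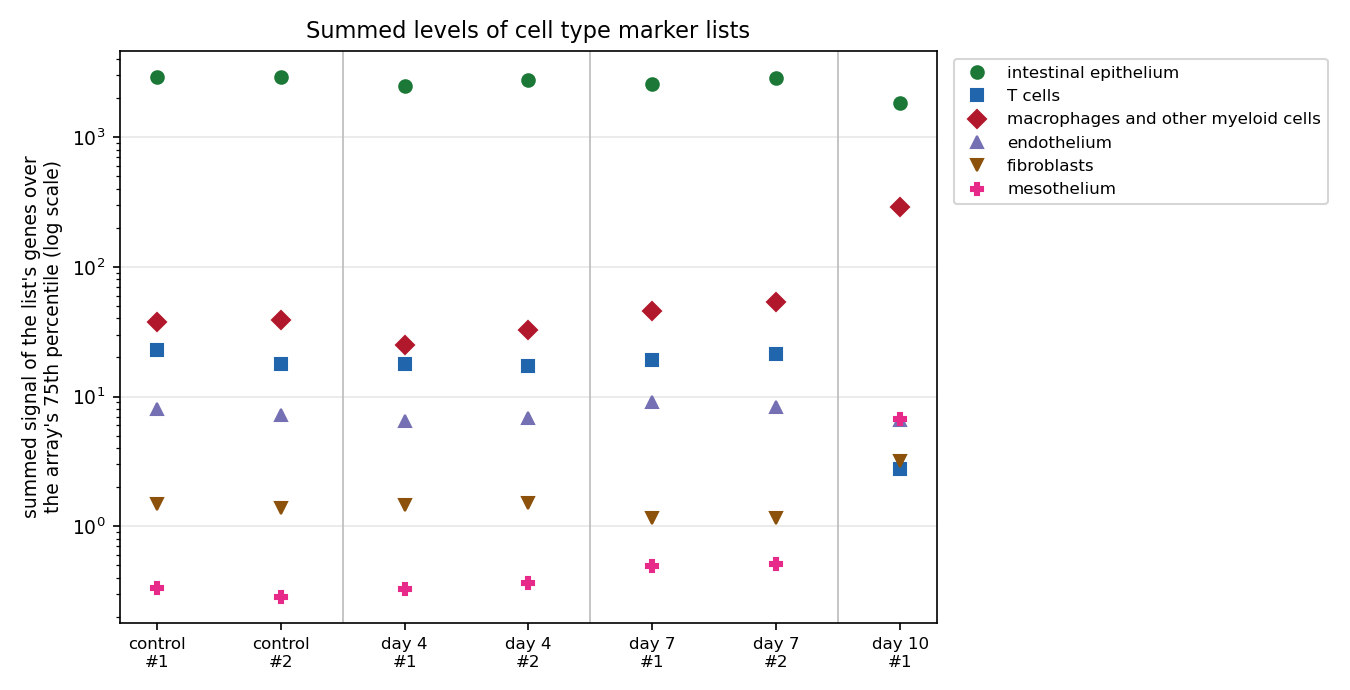
Summed signal of the genes of each cell type list over the array's 75th percentile, on a log axis, by array. The myeloid list is at 287 and the T cell list at 2.74 on the day 10 array, apart from the other 6 arrays. The epithelial list is also apart there, at 1830 against 2480 to 2920 on the other 6.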

How the data were processed

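RNA of 7 samples was hybridised to 1-colour (Cy3) arrays. The intensity values were deposited by the authors as output of Agilent Feature Extraction 11.5.1.1 (array design 028005, build label mm9), per the file headers. That software's gProcessedSignal is background-subtracted, with no scaling between arrays. Control spots and outlier spots were left out, spots of a probe were averaged, and log2(signal) minus the array's 75th percentile was used. Accessions were named through RefSeq of GRCm38.p6 (27509 of 55681 probes). Probes had to be well above background on 2 or more of the 7 arrays, a gene was its brightest probe, and 24760 features were fitted with limma 3.58.1 in R 4.3.3, with 1 mean per group over all arrays, 2-sided tests and Benjamini-Hochberg adjustment. The script was tested on simulated data. Normexp used gMedianSignal because the files analysed hold no mean spot signal. The deposited value table, whose intensity equalled gProcessedSignal within 0.1% for probes with 1 spot, was an alternative, as were other scalings, filters, probe rules, sample sets, the replicate block and each array left out. Lists were described by counts and medians. The 75th percentile over all spots was kept although under 50% of probes were well above background on 6 arrays.

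The genes and lists were chosen with earlier results of these data known. Named were the 5 genes, up to 5 highest and 3 lowest called of the other fetal-like list at day 7, up to 2 highest and 2 lowest of other lists (or the smallest p), and the 3 nearest profiles. Some genes that these rules select are not reported here. Same-numbered arrays did not deviate together in every pair (correlations 0.00829, 0.0858 and 0.25), so numbers were not taken as pairs.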

Additional observations from a re-analysis of the deposited data

Results flagged for a closer look

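The rise against control differed between day 7 and day 4 for 3 genes, by the test of day 7 minus day 4 in limma. The difference was 4.39 for Clu (adjusted p = 0.00741), 8.86 for Msln (adjusted p = 0.00469) and 5.80 for Ly6a (adjusted p = 0.0339). In each, both day 7 arrays lay above both day 4 arrays. How many of all features show that order is not given here, so it is a description and adds nothing to the tests. The Msln value includes day 4 signals that were not well above background, and its bound is at least 121-fold in the main setting. With normexp background correction the Msln difference was 5.03, below that bound.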

How the results depend on the processing

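The 5 genes are represented by 1 probe each, and 2 arrays a group and 1 at day 10 limit the precision. Over the up to 19 alternative settings that gave a value, the directions of Clu, Msln and Ly6a did not change in any comparison. With normexp background correction all differences given above as bounds at day 7 were smaller than those bounds. Besides Msln, Ccn2 and Tm4sf1, the log2 differences from control were then 3.69 for Ly6f, 1.26 for S100a9, 0.59 for Tie1, 0.56 for Pdpn and -0.34 for Dcn. Of the 5 genes, 3 were called at day 7 against control in the main setting and 2 to 3 with an array left out. At day 4, where none was called, 1 was with normexp background correction and 1 among probes well above background on all arrays, and 0 with an array left out. At day 7 against day 4 the count of 3 was 0 to 3 with an array left out. At day 10 against control it was 4 without a filter on dim probes and 4 under the filter of at least 1 array, and at day 10 against day 7 it was 3, 3 and, with the strictest filter, which leaves 2 of the genes, 1. The added call is Spp1, which enters through the day 10 array. Other fetal-like genes called at day 7 against control numbered 13, and 8 to 16 with an array left out. At day 7 against day 4 they numbered 12, against 2 with no filter, 6 with the filter of at least 1 array and 0 to 14 with an array left out. With the replicate block the 5 genes kept their counts of 0, 3, 3, 3 and 2 calls and the other fetal-like genes had 0, 13, 10, 21 and 12. Of the day 7 calls against control on genes named here, the replicate block ended that of Cdx1. Day 10 calls on named genes outside the 5 and the other fetal-like list were not examined with it. The median of all features between day 10 and control was -0.15, and 0.08 when scaled to probes well above background on all arrays and -0.35 with median scaling, where 2586 of 6953, 3336 of 6786 and 1998 of 7240 calls were higher. The cause of these changes was not tested.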
